A study of Mus musculus with 12 samples.

Results

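The genes described here are 10 receptors and SMAD proteins of the TGF-β and bone morphogenetic protein (BMP) pathways (Tgfbr1, Tgfbr2, Bmpr2, Bmpr1a, Acvrl1, Acvr1, Eng, Smad3, Smad6 and Smad7), out of 24445 gene symbols counted in sorted cardiac macrophages (Mφ). They were chosen by gene symbol, with earlier comparisons of their normalised counts between the 3 groups of mice known. For that reason their levels and fold changes are given as a description and not as a test of the pathway. CD14+/CD64+ cells were sorted from hearts of adult male C57BL6/J mice, and 1 RNA-seq library was made per mouse. Control (Ct) mice carried a saline pump, early concentric hypertrophy (ECH) mice received the β-adrenergic agonist isoproterenol at 30 mg/kg/day for 14 days, and heart failure (HF) mice received the same dose for 28 days, with 4 mice in each group. The sources used here do not give how long each Ct mouse carried its pump.

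TGF-β ligands are released in a latent form and signal through a complex of type II and type I receptor kinases. The type II receptor binds ligand and phosphorylates the type I receptor, which phosphorylates receptor-activated SMADs. These join Smad4 and enter the nucleus. TGFBR2 and TGFBR1 (also called ALK5) are the receptor pair of TGF-β and act through SMAD2 and SMAD3. BMPR2 is a type II receptor of BMPs and pairs with the type I receptors BMPR1A (ALK3), ACVR1 (ALK2) and, for BMP9 and BMP10, ACVRL1 (ALK1), which act through SMAD1, SMAD5 and SMAD9. Endoglin (ENG) is a coreceptor best known from endothelial cells. SMAD6 and SMAD7 are inhibitory SMADs, with SMAD6 acting mainly on BMP signals and SMAD7 on both arms. In the heart the pathway is best known for fibroblast activation and fibrosis, and in Mφ for restraining inflammatory gene expression.

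The libraries held between 88466559 and 111180291 counts, and values below are counts scaled to library size (CPM) after TMM scaling, which corrects for differences in library composition, and the order of the 10 genes is given as CPM per kb of annotated exon, since CPM alone also depends on gene length. The sort markers were present in all 12 libraries, with Cd14 between 1713 and 2993 CPM and Fcgr1, which encodes CD64, between 71.5 and 182 CPM. Ct library 2 stood apart. It differed at least 2-fold from the mean of the other Ct libraries for 6 of the 10 genes, whereas each other library did so within its group for at most 2. This was not particular to the 10 genes. Over all genes tested, its median absolute log2 deviation was 0.662, against 0.264 to 0.416 for the other libraries within their groups. Ct library 2 also had the highest summed B cell (446 CPM), T and NK cell (56.5 CPM) and neutrophil (1583 CPM) marker levels of all libraries. The fewest genes were detected in HF library 1 (13600) and, among Ct libraries, in Ct library 2 (14489). By the library numbers in the labels, ECH mice 1 and 2 also group with Ct, and ECH mice 3 and 4 with HF. The sample titles also carry a code, of a meaning that is not stated, whose first part is shared by Ct mice 1 and 2, by Ct mice 3 and 4, by ECH mice 3 and 4 and by HF mice 1 and 2. Neither the labels nor the study's methods state that the sets were prepared apart, but HF and Ct share no set and could not be compared within one, and only the ECH mice link the sets.

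The TGF-β receptor pair had the highest levels per kb of the 10 genes in every group. Per kb of exon, Tgfbr2 reached 66.8 ± 20.1 CPM in Ct (SD, n = 4), Tgfbr1 35.6 ± 6.88 and Acvrl1 19.4 ± 7.10. Eng followed at 6.27 ± 1.92, Smad3 at 3.72 ± 1.31 and Acvr1 at 2.60 ± 0.797. Bmpr1a stood at 1.89 ± 0.466, Bmpr2 at 1.52 ± 0.683, Smad7 at 1.34 ± 0.877 and Smad6 at 0.242 ± 0.218. In Ct, neighbours in this order overlapped between mice except at 2 steps, from Acvrl1 (10.4 to 27.5 CPM per kb) to Eng (3.47 to 7.78) and from Smad7 (0.678 to 2.63) to Smad6 (0 to 0.530). The dedicated BMP receptors Bmpr2 and Bmpr1a were therefore listed well below the TGF-β pair, although the merged exons of Bmpr2 span 17983 bases, most of any of the 10 genes, and the level per kb depends on how much of that length is transcribed in these cells. In HF the order was the same except that Bmpr2 (0.673 ± 0.234 CPM per kb) lay below Smad7 (0.922 ± 0.205), with overlapping ranges. In ECH, Bmpr1a (1.81 ± 0.262) lay just above Acvr1 (1.76 ± 1.12), also with overlapping ranges.

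**Figure D1:**
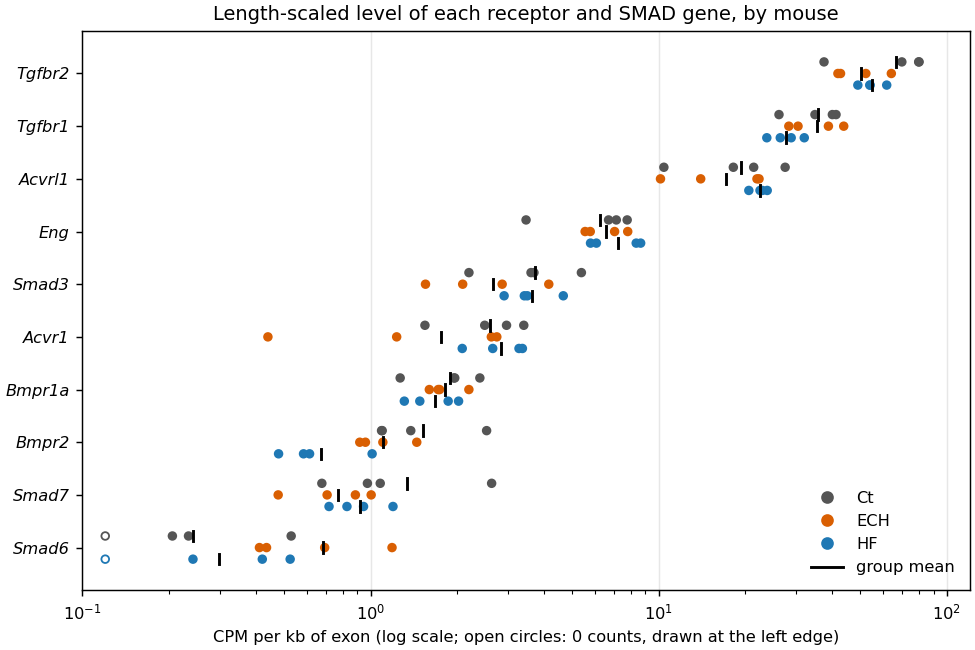
Level of each gene in each mouse, as CPM per kb of exon on a log axis, with 1 point per library, colours for Ct, ECH and HF and a black bar at each group mean (n = 4). Tgfbr2, Tgfbr1 and Acvrl1 lie above all other genes in all 3 groups, and the 2 open circles mark the Smad6 counts of 0 in Ct library 2 and HF library 1.

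None of the 10 genes was called in any comparison with edgeR's quasi-likelihood test at a Benjamini-Hochberg adjusted p (FDR) under 0.05 over the 14608 genes tested. The count was 0 of 10 for ECH versus Ct, where 0.472% of all genes tested were called, 0 of 10 for HF versus Ct, where 0.513% were called, and 0 of 10 for HF versus ECH, where 0% were called. At an unadjusted p under 0.05 the counts were 0 of 10 for ECH versus Ct (11.9% of all genes), 1 of 10 for HF versus Ct (16.1%) and 1 of 10 for HF versus ECH (7.98%), and the gene was Bmpr2 both times. Groups that did not overlap in CPM were found for 0 of 10 in ECH versus Ct (7.97% of all genes), for 1 of 10, again Bmpr2, in HF versus Ct (9.04%) and for 0 of 10 in HF versus ECH (6.92%). The median log2 fold change of the 10 genes was -0.29 for ECH versus Ct, -0.11 for HF versus Ct and 0.13 for HF versus ECH, beside medians over all genes tested of 0.01, -0.01 and -0.02. ECH versus Ct and HF versus Ct share the Ct libraries, and the 3 comparisons are not independent of each other. The common biological coefficient of variation over all genes tested was 60.8%.

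**Figure D2:**
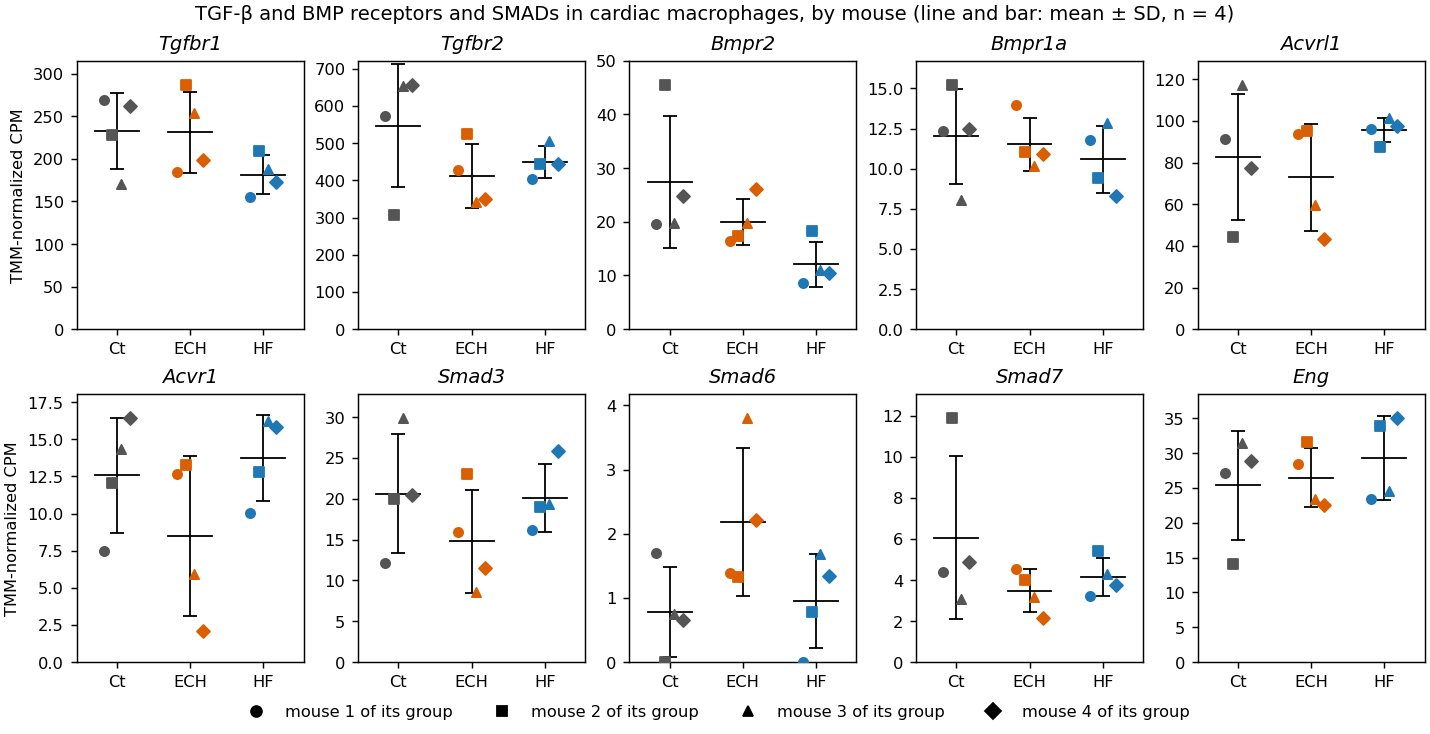
TMM-normalized CPM of each of the 10 genes in each mouse, grouped as Ct, ECH and HF, on a linear axis from 0 in each panel, a line at the group mean and a bar for the SD (n = 4). Bmpr2 in HF lies below every Ct mouse, ECH mice 3 and 4 sit low for Acvrl1, Acvr1 and Smad3, and Ct mouse 2 lies away from the other Ct mice for Bmpr2, Smad7, Tgfbr2, Acvrl1 and Eng.

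Among the type II receptors, Bmpr2 (chromosome 1, 59763400 to 59879014, plus strand, GRCm38) had its lowest values in HF. Its levels were 19.6, 45.5, 19.7 and 24.8 CPM in the Ct mice, 16.5, 17.3, 19.8 and 26.02 CPM in the ECH mice and 8.62, 18.2, 11.05 and 10.53 CPM in the HF mice. Every HF mouse lay below every Ct mouse, while the highest HF mouse overlapped the ECH range and Ct mouse 2 was far above the other Ct mice. The log2 fold change was -1.18 ± 0.31 (SE) for HF versus Ct (95% CI -1.85 to -0.51, FDR = 0.119), -0.72 ± 0.31 for HF versus ECH (95% CI -1.38 to -0.05, FDR = 0.595) and -0.46 ± 0.31 for ECH versus Ct (95% CI -1.12 to 0.20). Part of the HF versus Ct value came from a single library, since without Ct mouse 2 it was -0.82 and the Ct mean was 21.4 ± 2.95 CPM (n = 3) in place of 27.4 ± 12.3. For ECH versus Ct the value without Ct mouse 2 was -0.10. Without Ct mouse 2 and HF mouse 1 together the HF versus Ct value was -0.70. DESeq2 gave an adjusted p of 0.0116 for HF versus Ct and the edgeR likelihood ratio test 0.0190, with Bmpr2 the 1 gene of 10 called by either, and these tools called 4.83% and 3.33% of all genes in that comparison, against 0.513% for the quasi-likelihood test. The adjusted p of Bmpr2 for HF versus Ct ranged from 0.0116 to 0.276 over all alternatives tried. Within the library set of HF, which includes ECH mice 3 and 4, the log2 difference was -0.92 ± 0.31 (FDR = 0.141).

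Tgfbr2 (chromosome 9, 116084293 to 116175360, minus strand), the ligand-binding receptor of TGF-β, had the highest level per kb of the 10 genes. Its levels were 572, 307, 654 and 656 CPM in Ct, 429, 526, 343 and 350.3 CPM in ECH and 402, 444, 507 and 443 CPM in HF. Ct mouse 2 was the lowest of all 12, and the other 3 Ct mice were higher than every ECH and HF mouse. On the log2 scale the difference was -0.41 ± 0.22 for ECH versus Ct (95% CI -0.88 to 0.06) and -0.29 ± 0.22 for HF versus Ct (95% CI -0.76 to 0.19). Without Ct mouse 2 these values were -0.61 and -0.48, and the Ct mean was 627 ± 48.1 CPM (n = 3). With the library set as a covariate the HF versus Ct value was 0.18, of the opposite sign.

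Of the type I receptors, Tgfbr1 (chromosome 4, 47353222 to 47414931, plus strand) is the signalling partner of TGFBR2. It was measured at 269.7, 228, 171 and 262 CPM in Ct, at 185, 287, 254 and 199 CPM in ECH and at 155, 209, 188 and 173 CPM in HF. The groups overlapped, with HF mouse 1 lowest of all 12 and HF mouse 4 also below every ECH mouse. Its log2 fold change was -0.01 ± 0.18 for ECH versus Ct (95% CI -0.39 to 0.37) and -0.36 ± 0.18 for HF versus Ct (95% CI -0.74 to 0.03), so a 2-fold difference lay outside both intervals.

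Acvrl1 (chromosome 15, 101128522 to 101145336, plus strand), the type I receptor of BMP9 and BMP10 that is best known from endothelium, differed in spread more than in mean. Levels were 91.2, 44.5, 117 and 77.5 CPM in Ct, 93.6, 95.1, 59.7 and 43.3 CPM in ECH and 95.9, 87.7, 102 and 97.7 CPM in HF. The HF mice lay close together (SD 5.85 CPM), while ECH split into a higher and a lower pair of mice. Log2 fold changes were -0.18 ± 0.28 for ECH versus Ct, 0.21 ± 0.28 for HF versus Ct and 0.39 ± 0.28 for HF versus ECH, all with intervals that included 0. Without Ct mouse 2 the first of these was -0.39 and the second 0.0065. They were 0.19 and 1.09 with the library set as a covariate. Summed over 20 endothelial markers, the level was 60.7 to 106 CPM in Ct, 69.3 to 168 CPM in ECH and 48.1 to 83.5 CPM in HF, and 0 of the 19 markers tested were called in any comparison. The 2 libraries with the highest endothelial sums, ECH mice 3 and 4 (168 and 121 CPM), were among the 3 lowest for Acvrl1. Across the 20 markers, the highest value in any library ranged from 0.104 CPM for Erg, which was at 0 in all HF libraries, to 78.5 CPM for Fabp4. The part of endothelial RNA in the Acvrl1 values was not tested.

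Acvr1 (chromosome 2, 58388644 to 58567157, minus strand), a type I receptor for BMPs and activins, was measured at 7.46, 12.03, 14.3 and 16.4 CPM in Ct, at 12.7, 13.2, 5.95 and 2.13 CPM in ECH and at 10.05, 12.8, 16.3 and 15.8 CPM in HF. The 2 lowest values of all 12 libraries were those of ECH mice 3 and 4. The log2 fold change was -0.56 ± 0.46 for ECH versus Ct and 0.69 ± 0.46 for HF versus ECH, with wide intervals (95% CI -1.55 to 0.42 and -0.29 to 1.68). Bmpr1a (chromosome 14, 34410734 to 34503341, minus strand), the ALK3 receptor of BMP2 and BMP4, lay between 8.05 and 15.2 CPM in all 12 libraries. Its group means were 12.02 ± 2.96 CPM in Ct, 11.5 ± 1.66 in ECH and 10.6 ± 2.09 in HF, which differed by less than the spread between mice, and the 95% CI of the log2 fold change was -0.70 to 0.34 for HF versus Ct.

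The coreceptor Eng (chromosome 2, 32646595 to 32682669, plus strand) was measured at 27.1, 14.0, 31.5 and 28.9 CPM in Ct, at 28.5, 31.6, 23.4 and 22.5 CPM in ECH and at 23.5, 33.8, 24.6 and 35.1 CPM in HF. Ct mouse 2 was lowest, HF mice 2 and 4 were above every other mouse, and the groups overlapped. Its log2 fold change was 0.06 ± 0.24 for ECH versus Ct (95% CI -0.46 to 0.59) and 0.20 ± 0.24 for HF versus Ct (95% CI -0.32 to 0.73), and without Ct mouse 2 these values were -0.14 and 0.0048. Exons of Eng are overlapped on the opposite strand by Fpgs, those of Acvrl1 by Gm16031 and those of Bmpr1a by Gm17110. The sources used here do not give the strand setting of the counting, so reads of such partners could not be told apart.

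The receptor-activated SMAD of the TGF-β arm, Smad3 (chromosome 9, 63646767 to 63757994, minus strand), was measured at 12.2, 20.0, 29.9 and 20.5 CPM in Ct, at 15.9, 23.03, 8.60 and 11.6 CPM in ECH and at 16.1, 18.9, 19.4 and 25.9 CPM in HF. ECH mice 3 and 4 were the lowest of all 12, and Ct and HF covered a similar range. Log2 fold changes were -0.48 ± 0.32 for ECH versus Ct (95% CI -1.17 to 0.21), -0.04 ± 0.32 for HF versus Ct (95% CI -0.73 to 0.65) and 0.44 ± 0.32 for HF versus ECH (95% CI -0.25 to 1.13). The HF versus Ct value turned to 0.91 with the library set as a covariate.

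Of the inhibitory SMADs, Smad7 (chromosome 18, 75367529 to 75395935, plus strand) was measured at 4.41, 11.9, 3.06 and 4.88 CPM in Ct, at 4.54, 4.01, 3.20 and 2.16 CPM in ECH and at 3.24, 5.41, 4.28 and 3.74 CPM in HF. Ct mouse 2 was 2.89 times the mean of the other Ct mice (4.12 ± 0.945 CPM, n = 3), and the remaining 11 libraries lay between 2.16 and 5.41 CPM. The log2 fold change for HF versus Ct was -0.54 ± 0.44 with all mice. It was of the opposite sign without Ct mouse 2 (0.02) and with the library set as a covariate (0.13). For ECH versus Ct it was -0.80 ± 0.44 (95% CI -1.76 to 0.16) with all mice and -0.24 without Ct mouse 2.

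Smad6 (chromosome 9, 63953076 to 64022059, minus strand) had the lowest level per kb of the 10 genes in every group. Its levels were 1.70, 0, 0.748 and 0.658 CPM in Ct, 1.396, 1.32, 3.81 and 2.22 CPM in ECH and 0, 0.775, 1.69 and 1.35 CPM in HF. The groups overlapped, with the highest 2 values in ECH mice 3 and 4. The 0 in Ct mouse 2 allows up to 0.0349 CPM and that in HF mouse 1 up to 0.0287 CPM (3 counts, counting error only), while the other 10 libraries held 68 to 424 counts. The log2 fold change for ECH versus Ct was 1.49 ± 1.37 (95% CI -1.47 to 4.45), and without both libraries at 0 it was 1.07. At this spread a difference of several-fold in either direction would not have been detectable.

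**Figure D3:**
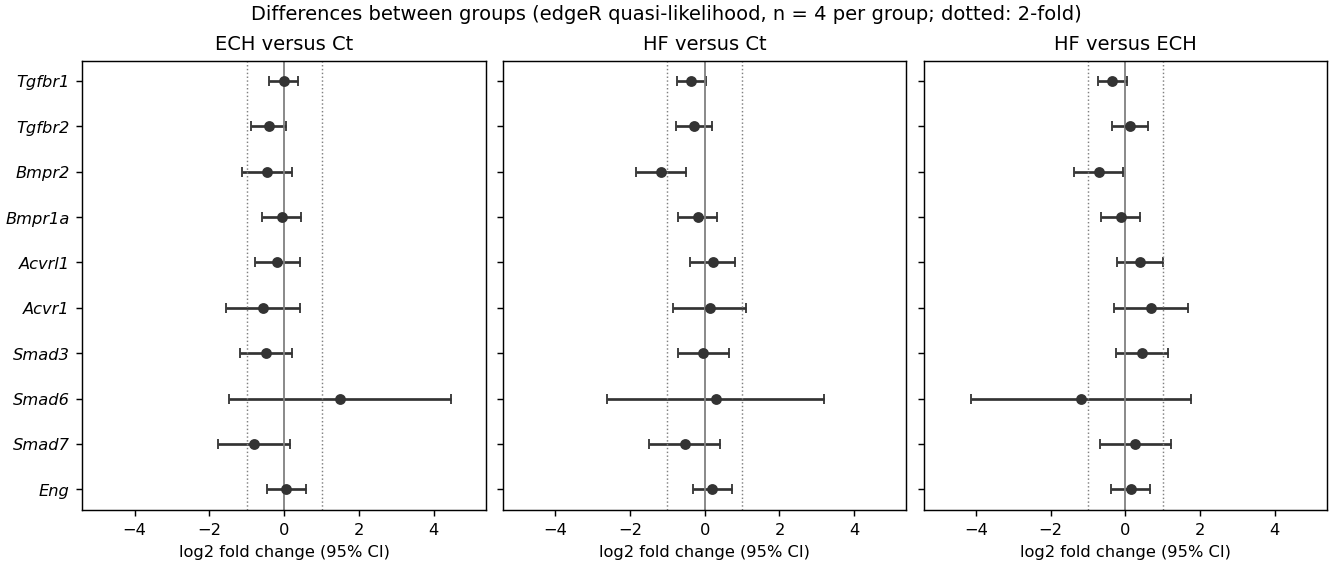
Log2 fold change of each gene in the 3 comparisons, as the edgeR estimate (point) with its 95% confidence interval (bar), with n = 4 mice per group and dotted lines at a 2-fold difference. Only the Bmpr2 intervals for HF versus Ct (-1.85 to -0.51) and HF versus ECH (-1.38 to -0.05) leave out 0, and the Smad6 intervals are the widest.

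The 4 ECH mice were not alike for these genes. ECH mice 3 and 4 both lay below ECH mice 1 and 2 for 7 of the 10 genes (Tgfbr2, Bmpr1a, Acvrl1, Acvr1, Smad3, Smad7 and Eng), which was the case for 26.6% of all genes tested, and both lay above them for 2 of the 10, Bmpr2 and Smad6, as for 27.8% of all genes. The mean of mice 3 and 4 was 0.312 times that of mice 1 and 2 for Acvr1, 0.519 times for Smad3, 0.546 times for Acvrl1 and 2.22 times for Smad6. This split follows both the library numbers and the title codes, of which ECH mice 3 and 4 share one and ECH mice 1 and 2 do not, and its origin was not tested. Summed marker levels differed between the same pairs of mice, at 107 and 94.9 CPM in mice 1 and 2 against 169 and 187 CPM in mice 3 and 4 for cardiomyocyte markers, 69.3 and 73.1 against 168 and 121 CPM for endothelial markers and 41450 and 37757 against 31202 and 30475 CPM for Mφ markers, and their part in the split was not tested. Single genes weighed on these sums. Over the ECH mice, the Mφ marker Lyz2 alone ranged from 12791 to 21130 CPM and the endothelial marker Fabp4 from 21.9 to 78.5 CPM. When HF was compared only with ECH mice 3 and 4, 1 of 10 genes was called, Acvrl1, with a log2 difference of 0.90 ± 0.15 (FDR = 0.0192), in a comparison that called 6.47% of all genes. The values for Acvr1 (1.77 ± 0.46, FDR = 0.0692) and Smad3 (0.99 ± 0.26, FDR = 0.0710) were larger than over all ECH mice but did not pass. When Ct was compared only with ECH mice 1 and 2, the log2 differences were 0.18 for Acvrl1, 0.04 for Acvr1 and -0.09 for Smad3, and 0 of 10 genes were called, where 0.00674% of all genes were called.

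**Figure D4:**
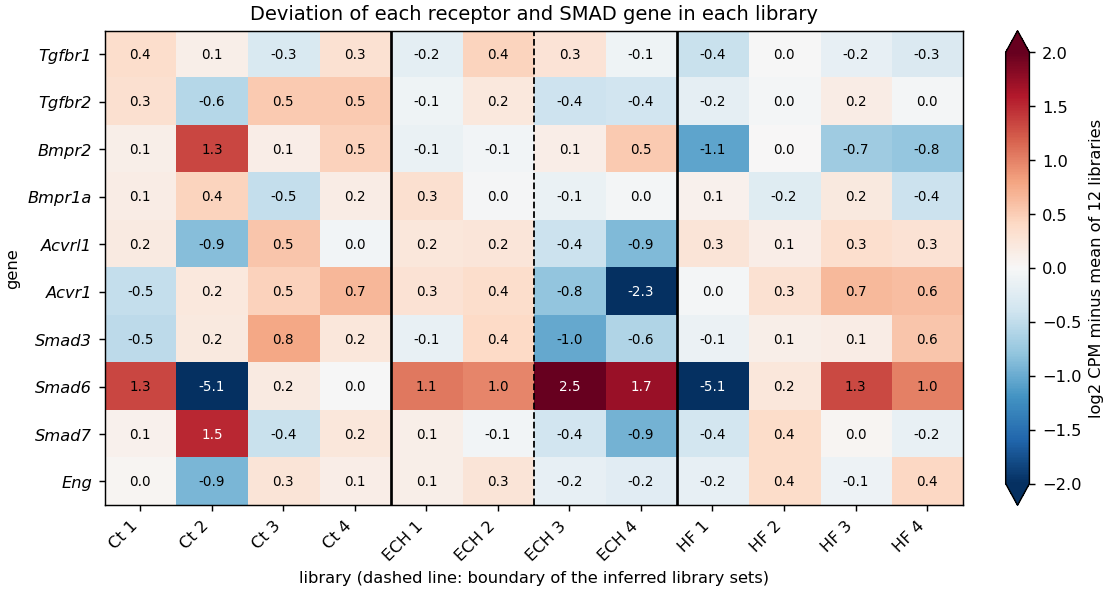
Log2 CPM of each gene (rows) in each library (columns) minus the mean of the 12 libraries, with red for higher and blue for lower values, colours ending at 2 and the value printed in each cell (for the Smad6 counts of 0 it depends on the prior count of 2). Solid lines part the Ct, ECH and HF groups and the dashed line parts the library sets inferred from the library numbers, and the columns of Ct 2, ECH 3 and ECH 4 hold many of the deviations.

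Across the 12 libraries the 10 genes did not move as 1 group. The 45 pairwise correlations of log2 CPM ran from -0.71 (Bmpr2 and Acvrl1) to 0.74 (Acvr1 and Smad3), with a median of 0.14, and 23 were above 0. These values describe libraries that share groups and sets, and Ct 2, ECH 3 and ECH 4 weigh on them, as do, for Smad6, the counts of 0 in Ct 2 and HF 1, whose log2 value is set by the prior count. Among all genes tested, those most like each member over the 12 libraries had a Pearson r between 0.85 and 0.98. They included Sema4a (r = 0.95), Dusp7 and Fmnl3 for Tgfbr2, Mir7663 (r = 0.89, at a mean of only 0.0838 CPM), Ddx46 and Wrb for Tgfbr1, Rsf1 (r = 0.96) and Iffo1 for Bmpr2, Tor2a (r = 0.90), Tnfsf13b and Ddx23 for Bmpr1a, and Smyd5 (r = 0.98), Krcc1 and Nabp1 for Acvrl1. Those of Acvr1 were Wtip (r = 0.93), Pcyox1l and Cenpt, those of Eng were Mogs (r = 0.96), Slc7a5 and Rcc2, and those of Smad3 were Rapgef5 (r = 0.96), Rac2 and 2700029M09Rik. For Smad6 they were Ncapg (r = 0.98), 9830147E19Rik and Kiss1r, and for Smad7 Mdh1 (r = 0.93), Lin9 and Ssbp3. None of the genes ranked in this way was another of the 10. With 3 genes taken per member out of 14608 tested, this was nearly fixed in advance and does not show whether the 10 move together. The r values are likewise the highest of that many genes over 12 libraries, so they are high by selection.

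Around the receptors, 93 other genes of the pathway were listed by role, of which 76 passed the filter on low counts and the other 17 held at most 71 counts in any library. For ECH versus Ct 2 of the 76 rose and 0 fell (0.472% of all genes were called), for HF versus Ct 2 rose and 0 fell (0.513%), and for HF versus ECH 0 were called (0%), by the edgeR quasi-likelihood test at an FDR under 0.05. At an unadjusted p under 0.05 there were 19, 19 and 7 of 76, beside 11.9%, 16.1% and 7.98% of all genes. The 3 genes called were Thbs1, Spp1 and Bhlhe40.

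Among genes that bind or activate latent TGF-β (11 tested, 1 called higher in ECH versus Ct), Thbs1 encodes thrombospondin-1, a matricellular protein known to activate latent TGF-β. It was measured at 91.6, 94.4, 51.8 and 53.0 CPM in Ct, at 232, 329, 343 and 216 CPM in ECH and at 86.8, 144, 126 and 259.9 CPM in HF. Every ECH mouse lay above every Ct mouse, and the HF mice spanned both ranges. Thbs1 rose by 1.94 ± 0.32 on the log2 scale in ECH versus Ct (FDR = 0.0202), while for HF versus Ct the value was 1.08 ± 0.32 (FDR = 0.144) and for HF versus ECH -0.86 ± 0.31 (FDR = 0.564). Its adjusted p for ECH versus Ct ranged from 2.22e-07 to 0.197 over the alternatives and stayed under 0.05 in 17 of 23, and it was not called without Ct mouse 1, Ct mouse 4 or ECH mouse 3. By CPM averaged over the 12 libraries, without regard to length, the highest gene of this list was Nrros, which tethers latent TGF-β on myeloid cells, with 453 ± 109 CPM in Ct, 450.3 ± 95.3 in ECH and 589 ± 46.2 in HF (FDR = 0.341 for HF versus Ct).

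Of 18 target genes tested, Spp1 and Bhlhe40 were called. Spp1, which encodes osteopontin, a secreted matrix and cytokine-like protein, was measured at 64.9, 67.5, 18.7 and 45.4 CPM in Ct, at 292, 948, 1121 and 328 CPM in ECH and at 349, 487, 749 and 1099 CPM in HF. All isoproterenol mice lay above all Ct mice. Spp1 rose by 3.78 ± 0.56 in ECH versus Ct (FDR = 0.0139) and by 3.77 ± 0.56 in HF versus Ct (FDR = 0.0123) on the log2 scale. The 2 comparisons share the Ct libraries. Its adjusted p ranged from 4.33e-09 to 0.197 and from 3.23e-09 to 0.0796 over the alternatives, and the calls held in 19 of 23 and 19 of 22. Of the libraries left out in turn, Ct mouse 1 ended the call for ECH versus Ct and Ct mouse 4 that for HF versus Ct. Bhlhe40, a transcriptional repressor, was measured at 29.8, 16.7, 41.4 and 33.0 CPM in Ct, at 68.5, 106, 57.0 and 38.9 CPM in ECH and at 76.0, 76.9, 87.96 and 109.96 CPM in HF. It rose by 1.54 ± 0.31 in HF versus Ct (FDR = 0.0455), a call that held in 11 of 22 alternatives and was lost without any single one of Ct mice 1, 2 and 4, ECH mice 1 and 3 or the 4 HF mice, and its value for ECH versus Ct was 1.16 ± 0.30 (FDR = 0.128). All 3 genes also respond to many signals besides TGF-β. The target with the highest mean CPM was Junb, an AP-1 subunit, with 4186 ± 613 CPM in Ct, 2605 ± 816 in ECH and 2458 ± 462 in HF (FDR = 0.134 for HF versus Ct).

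Of 10 ligand genes tested, 0 were called. Tgfb1 had the highest mean CPM over the 12 libraries, with 78.9 ± 9.77 CPM in Ct, 61.2 ± 6.40 in ECH and 77.3 ± 5.63 in HF, and an FDR of 0.268 for ECH versus Ct and 0.564 for HF versus ECH. Bmp10 and Gdf2, which encodes BMP9, the ligands of ALK1, had 0 counts in all 12 libraries. Of 10 other receptors and coreceptors 0 were called, and the highest mean CPM was that of Nrp1, a coreceptor for TGF-β and VEGF, at 499 ± 70.5 CPM in Ct, 448 ± 75.7 in ECH and 447 ± 61.5 in HF. Of the 5 other SMADs 0 were called. Smad4, the shared partner SMAD, was measured at 109.6 ± 9.12, 132 ± 23.7 and 107 ± 7.56 CPM in Ct, ECH and HF. Among the BMP-activated SMADs, named here after their values were seen, Smad1 stood at 52.9 ± 22.6, 73.7 ± 6.25 and 64.1 ± 4.60 CPM, Smad5 at 35.2 ± 11.8, 29.1 ± 5.88 and 26.5 ± 3.24 CPM and Smad9 at no more than 0.374 CPM in any library. Ct mouse 2 lowered the Ct mean of Smad1, at 19.3 CPM beside 63.1, 61.6 and 67.7 CPM in the other Ct mice. For Smad5 it was the highest Ct mouse, at 51.7 CPM. Of 6 ligand antagonists and 16 regulators 0 were called. The genes of these lists with the highest mean CPM were Dcn (decorin), at 62.7 ± 50.2, 149.9 ± 118 and 102 ± 47.3 CPM, and Fkbp1a, which encodes the FKBP12 protein that binds type I receptors, at 316 ± 63.7, 277 ± 54.2 and 387 ± 40.6 CPM. Dcn is also a fibroblast marker, and the summed level of 10 fibroblast markers ranged from 304 to 823 CPM in Ct, 500.4 to 1289 in ECH and 640 to 1242 in HF, with 0 of 10 called. Gsn made up the largest part of these sums, with means of 421, 624 and 719 CPM in Ct, ECH and HF. Col1a1, of the same list, stood at 3.55, 7.99 and 5.11 CPM.

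**Figure D5:**
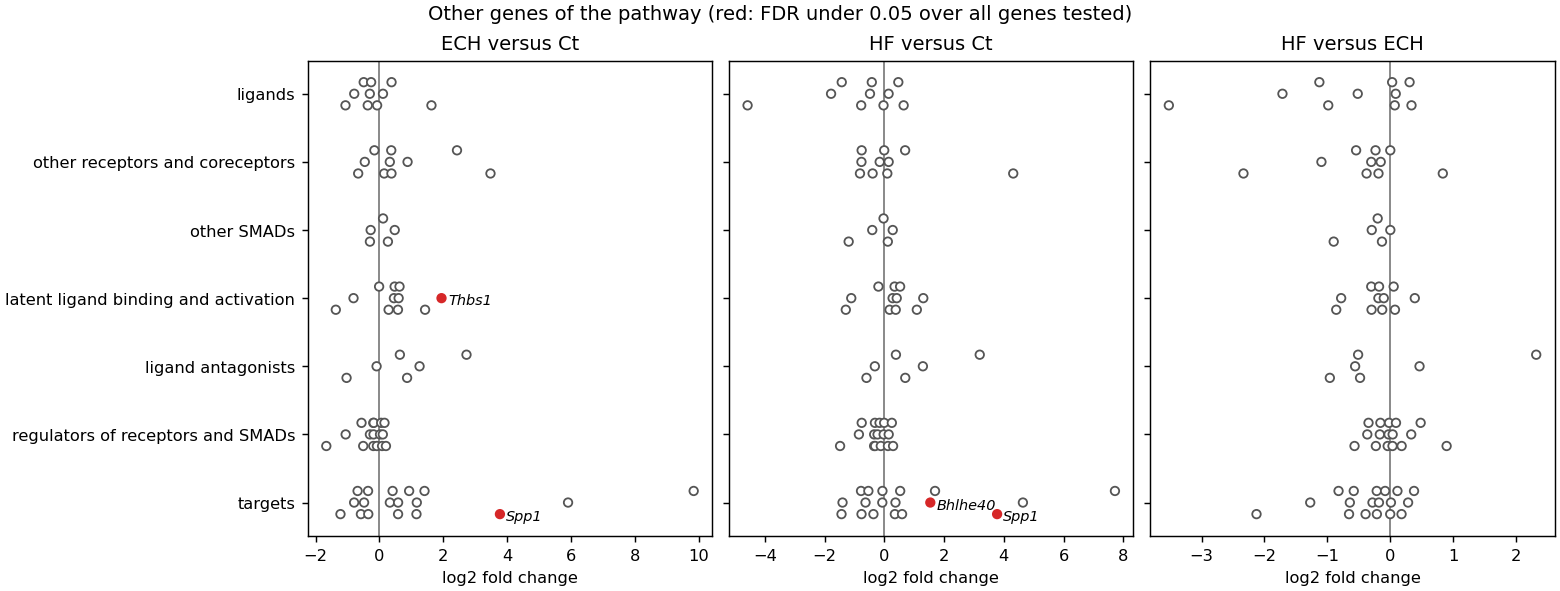
Log2 fold change of the 76 other pathway genes tested, by role (rows) and comparison (panels, each with its own horizontal scale), with 1 circle per gene and n = 4 mice per group. Filled red circles mark the genes with an FDR under 0.05 over all genes tested, which are Thbs1 and Spp1 for ECH versus Ct and Spp1 and Bhlhe40 for HF versus Ct.

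Markers of other cell types were also measured, and their part in the values above was not tested. Summed over 5 B cell markers, the level was 96.6 to 446 CPM in Ct against 34.3 to 79.8 in ECH and 50.1 to 74.6 in HF, and 1 of the 5 was called lower in ECH and in HF versus Ct. For 6 neutrophil markers the ranges were 334 to 1583, 168 to 455 and 127 to 1238 CPM, for 6 T and NK cell markers 12.1 to 56.5, 3.02 to 22.2 and 6.46 to 15.7 CPM, for 10 mural cell markers 5.91 to 17.4, 9.03 to 21.9 and 6.44 to 11.7 CPM and for 10 cardiomyocyte markers 106 to 273, 94.9 to 187 and 75.5 to 124 CPM, with 0 called. The sum of 10 Mφ markers was between 29287 and 41450 CPM in all libraries. In these bulk libraries, fewer cells of a type and less RNA per cell cannot be told apart.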

How the data were processed

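RNA of sorted CD14+/CD64+ cardiac Mφ was sequenced from 12 mice, 4 per group, and samples were grouped by the condition in their labels. The authors prepared cDNA with SMART-Seq v4, sequenced paired ends on a NextSeq 500, trimmed reads with Trimmomatic, aligned them to mm10 with TopHat2 and counted them on genes with featureCounts. The files deposited by the authors hold raw counts without normalization, and every column belonged to a sample. The sources used here do not give versions, gene annotation or strand setting. Amplified reads carry no molecular identifiers, so limits for a count of 0 cover counting error only.

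The counts were modelled with edgeR 4.0.16 under R 4.3.3 (filterByExpr by group, 14608 genes, all 10 members among them, TMM scaling, glmQLFit with 1 mean per group on all 12 libraries, Benjamini-Hochberg over all genes tested, called at an FDR under 0.05). SEs are the log2 fold change divided by the square root of F. Alternatives included RLE scaling, DESeq2 1.42.0, the edgeR likelihood ratio test, limma-voom (limma 3.58.1), other filters, fits of single comparisons, a replicate block, the library set, each library left out, and a fold change of at least 2. The code was tested on simulated data. Exon lengths and positions came from GENCODE M21 (GRCm38). The members and gene lists were chosen with earlier results of these data known. Named genes were the 10 members, other pathway genes called in any comparison, the gene of each role with the highest mean CPM, and the 3 genes most correlated with each member in log2 CPM (prior count 2), of which 1 is not reported here.

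P-values measure the spread between these libraries. Figures were drawn in Python with matplotlib.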

Additional observations from a re-analysis of the deposited data

How the results depend on the processing

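The 10 receptors and SMADs gave 0 calls in all 3 comparisons under every alternative except 3: for HF versus Ct 1 gene (Bmpr2) was called with DESeq2 and 1 (Bmpr2) with the likelihood ratio test, and for HF versus ECH 1 (Acvrl1) was called within a library set. Of 680 log2 fold changes of these genes recomputed under 23 alternatives, 666 moved by less than the spread between replicates and 37 had another sign than the value reported. Leaving out 1 library, as many of the alternatives did, could hardly move a value by that spread. The 666 are therefore not a measure of robustness, and for Smad6 the spread includes the counts of 0. With the library set as a covariate the HF versus Ct values moved to 1.81 for Acvr1, 1.09 for Acvrl1, 0.91 for Smad3, 0.59 for Eng and -1.62 for Bmpr2, and the sign turned for Smad3, Tgfbr2 (0.18), Smad7 (0.13), Bmpr1a (0.06) and Smad6 (-0.86); that fit rests on the ECH mice alone to separate set from group.

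For the other pathway genes, the count for ECH versus Ct (2) rose to 9 under DESeq2 (3.37% of all genes called) and to 7 under edgeR's likelihood ratio test (2.51%), and was 1 with only the groups compared, 1 with the library set as a covariate, 0 within a library set and between 0 (without Ct mouse 1) and 4 (without Ct mouse 3) with a library left out, with 1 without Ct mouse 4 or ECH mouse 3. For HF versus Ct (2) it rose to 9 under both DESeq2 (4.83% of all genes) and the likelihood ratio test (3.33%) and to 4 under limma-voom (2.10%), and was 1 with the library set as a covariate, 1 without Ct mouse 2 and HF mouse 1 together, and between 0 (without Ct mouse 4) and 4 (without Ct mouse 3) with a library left out, with 1 without any of Ct mice 1 and 2, ECH mice 1 and 3 and the 4 HF mice. For HF versus ECH (0) it was 2 with the library set as a covariate (Bmp2 and Klf10, with 2.97% of all genes called) and 8 of 76 within a library set (6.47%). Same-numbered libraries of different groups did not deviate together (r between -0.07 and 0.07), and in most cases a library correlated best with another number. With the replicate number as a block the counts were 0 for both comparisons with Ct, and 0 of the 10 receptors and SMADs were called. The cause of these changes was not tested. The receptors held at least 246 counts each in every library, and the widest intervals were those of Smad6, at 0 to 424 counts per library.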
